A study of Homo sapiens with 6 samples.

Results

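The genes of the proteasome and its helpers were examined in NB4 cells, an acute promyelocytic leukemia cell line that carries PML-RARA, after CRISPR targeting of ARID1A, which encodes a DNA-binding part of the SWI/SNF remodeler of chromatin. Members were the protein-coding genes whose symbols start with PSMA, PSMB, PSMC, PSMD, PSME, PSMF or PSMG and a number. The symbols gave 49 genes, of which 48 had a transcript in the deposited tables, out of 52992 genes with a matched transcript. The test kept 46 of them among 18514 genes. PSMB3, a beta ring subunit, had none of its transcript identifiers in the tables and was not analysed here. PSMA8, the spermatogenic alpha subunit, was at 0 counts in every library, and PSMB11, the thymic beta subunit, had at most 1 count in a library, so that the filter on low counts removed both. PSMC3IP matched by symbol, but encodes a meiotic recombination factor and is no proteasome subunit.

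The libraries fell into 3 groups of 2. LacZ was the control, with a guide against the bacterial lacZ gene, and sg1 and sg5 each carried a different guide against ARID1A and bore the genotype label ARID1A-deficient. All 6 libraries came from NB4 cells that express Cas9 and an inducible guide, were given 1 µg/ml doxycycline for 7 days and were then grown without it before RNA was taken. Nothing states that the 2 replicates of a group were separate cultures, so the p-values measure the spread between these libraries, which may be technical. Each line is a transduced population, and a guide can leave edited and unedited alleles in it.

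The proteasome is the protease that degrades most ubiquitin-tagged proteins of the cytoplasm and nucleus. Its barrel-shaped core is built from rings of alpha subunits (PSMA), which form the gate, and beta subunits (PSMB), of which PSMB5, PSMB6 and PSMB7 hold the active sites. A regulatory cap binds the gate: its base carries the ATPases (PSMC) that unfold substrates and pull them in, and its lid holds the deubiquitinase PSMD14. Interferon replaces the 3 catalytic subunits in newly built cores by PSMB8, PSMB9 and PSMB10, which gives the immunoproteasome and alters the peptides made for MHC class I. Activators (PSME) can take the place of the cap. When the proteasome is inhibited, the transcription factor NFE2L1 is known to raise the subunit genes together through antioxidant response elements. Proteasome inhibitors are used against blood cancers such as multiple myeloma.

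The 5 promoters promoters below belong to genes the results turn on: the paired activators PSME1 and PSME2, the inducible PSMB9, and the cap subunits PSMD1 and PSMD11, which had the 2 highest joined log2 fold changes. Each is the 250 bases before the RefSeq start on GRCh38.p14, 5′ to 3′ on the gene's own strand. Capitals mark matches, on either strand, to the antioxidant response element core TGACNNNGC, the CCAAT box or the interferon-stimulated element core GAAANNGAA. The windows lie at chr14:24135944-24136193 on the plus strand for PSME1, chr14:24146611-24146860 on the minus strand for PSME2, chr6:32853942-32854191 on the plus strand for PSMB9, chr2:231056617-231056866 on the plus strand for PSMD1 and chr17:32444260-32444509 on the plus strand for PSMD11.
PSME1: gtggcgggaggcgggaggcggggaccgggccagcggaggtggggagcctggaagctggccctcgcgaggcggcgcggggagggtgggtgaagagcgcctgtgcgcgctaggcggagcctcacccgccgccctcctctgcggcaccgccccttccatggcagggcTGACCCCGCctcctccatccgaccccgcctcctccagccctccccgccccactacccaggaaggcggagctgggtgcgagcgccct
PSME2: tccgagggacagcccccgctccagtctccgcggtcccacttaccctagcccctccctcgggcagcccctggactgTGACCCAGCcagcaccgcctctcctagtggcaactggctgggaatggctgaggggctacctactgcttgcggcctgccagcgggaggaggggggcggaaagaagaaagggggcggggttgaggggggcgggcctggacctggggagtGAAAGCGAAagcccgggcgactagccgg
PSMB9: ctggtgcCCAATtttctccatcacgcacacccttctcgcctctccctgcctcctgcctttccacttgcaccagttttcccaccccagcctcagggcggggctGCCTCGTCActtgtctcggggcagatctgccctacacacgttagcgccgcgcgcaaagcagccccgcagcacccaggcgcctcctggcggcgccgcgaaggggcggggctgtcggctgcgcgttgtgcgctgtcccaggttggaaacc
PSMD1: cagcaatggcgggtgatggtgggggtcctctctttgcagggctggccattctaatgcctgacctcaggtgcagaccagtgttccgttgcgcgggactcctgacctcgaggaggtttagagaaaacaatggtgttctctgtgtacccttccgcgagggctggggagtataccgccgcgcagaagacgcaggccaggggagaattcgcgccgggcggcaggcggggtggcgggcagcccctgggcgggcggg
PSMD11: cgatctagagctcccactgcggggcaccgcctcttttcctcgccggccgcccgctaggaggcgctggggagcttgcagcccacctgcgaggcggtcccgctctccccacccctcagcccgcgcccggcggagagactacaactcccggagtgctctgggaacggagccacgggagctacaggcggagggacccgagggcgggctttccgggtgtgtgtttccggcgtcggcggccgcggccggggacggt

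PSME1 and PSME2 each held 1 antioxidant response element core, with its leftmost base 86 and 175 bases before the start. PSME2 also held GAAAGCGAA 28 bases before its start, and PSMB9 held an antioxidant core on the opposite strand (GCCTCGTCA, 148 bases before the start) and a CCAAT box 243 bases before it. PSMD1 and PSMD11 held none of these 3 motifs in this window. RefSeq windows were at hand for 43 of the 49 genes, and PSMA7, PSMB1, PSMB6, PSMB7, PSMD4 and PSMG3 had none. Of the 43, 13 (30.2%) held TGACNNNGC, against 13.2% of all 27305 genes with a window. CCAAT was in 46.5% of the proteasome windows and 37.0% of all, the GC box GGGCGG in 62.8% and 46.2%, and GAAANNGAA in 11.6% and 8.41%. All 4 motifs were searched on both strands, and matches of different motifs were allowed to share bases. A match describes letters only, since no binding was measured.

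Libraries held 46131178 to 54843745 estimated counts, of which 95.4% to 95.5% fell on matched transcripts. ARID1A itself was at 155.0 and 190.7 CPM (counts scaled to library size with TMM factors) in LacZ, 211.0 and 191.1 with sg1, and 123.7 and 145.1 with sg5. Neither sg1 (log2 fold change 0.22 ± 0.14 SE, adjusted p = 0.993) nor sg5 (-0.36 ± 0.14, adjusted p = 0.661) passed edgeR's quasi-likelihood test for ARID1A, and transcript counts do not show edits or protein. Without the 2 libraries that stand apart (described next), the ARID1A log2 fold change was 0.15 in sg1 and -0.48 in sg5. In sg1 against sg5 it was 0.63. That fit holds 1 library of each guide. On the leading principal component, which held 34.4% of the variance, sg1 replicate 1 (34.3) and sg5 replicate 2 (46.8) stood apart from the other 4 libraries (-30.3 to -11.3). As 1 library of each guide stood apart, results are given with and without both. Of 6 promyelocyte markers 5 were tested, and their median level relative to LacZ was -0.24 and -0.27 in the sg1 libraries and -0.41 and -0.13 in the sg5 libraries on the log2 scale. For 3 of the 5, AZU1, CTSG and CD33, all 4 deficient libraries lay below both LacZ libraries, as for 10.4% of all genes. None of the 5 was called with all 6 libraries. Without the 2 that stood apart, 1 library of each guide was left. The joined log2 fold changes were then -0.64, -0.40 and -0.35 for the granule genes PRTN3, CTSG and AZU1, -0.18 for MPO and -0.16 for CD33. Adjusted p are not given for these markers in that fit. With all 6 libraries PRTN3 was at -0.21, and its sg1 replicate 1 (599.6 CPM) lay above both LacZ libraries (459.1 and 498.2). The part of these marker levels in the results on the proteasome was not tested. In bulk RNA, fewer cells of a kind and less RNA per cell cannot be told apart. MPO, the granule peroxidase, was at 13430 to 16830 CPM in every library, whereas ELANE, neutrophil elastase, was listed at 1 to 9 counts, and whether this is its expression or a limit of the tables was not tested. The hemoglobin genes HBA1 and HBB were at 0, CD14 had 10 to 46 counts, MS4A1 0 to 3, CD3E 0 to 2 and CD3D 244 to 366.

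In LacZ cells the proteasome was abundantly transcribed, with a median of 115.4 TPM (a level per transcript length, scaled to library size) over the 48 genes and a sum of 5622 and 5812 TPM in the 2 libraries. The alpha ring ran from PSMA1 (120.1 ± 16.7 TPM, SD, n = 2) to PSMA7 (341.6 ± 39.2), and PSMA4, next below PSMA7, was at 317.3 ± 6.13 and within its spread. The constitutive beta ring ran from PSMB2 (68.7 ± 1.80 TPM) to PSMB4 (252.4 ± 12.1), with PSMB1 at 250.4 ± 3.70 within the spread of PSMB4. Among the ATPases of the base, PSMC4 was lowest (56.8 ± 3.95 TPM) and PSMC3 highest (135.2 ± 6.31). The scaffold PSMD1 had the lowest level of the 3 other base subunits (40.7 ± 0.996 TPM) and its partner scaffold PSMD2 the highest (215.8 ± 10.1).

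The lid lay between PSMD12 (48.8 ± 1.71 TPM) and PSMD3 (152.6 ± 13.7), though PSMD8, PSMD13 and PSMD7 were all within the spread of PSMD3. The base assembly chaperones were lower, from PSMD5 (22.3 ± 0.0731 TPM) over PSMD10 (44.3 ± 0.164) to PSMD9 (63.5 ± 11.1). Among the activators, PSME1 (176.1 ± 5.19 TPM) exceeded its ring partner PSME2 (108.0 ± 0.702), the nuclear activator PSME3 was at 131.9 ± 2.93, and PSME4, an activator linked to acetylated histones, was at 14.9 ± 0.340. The inhibitor PSMF1 was at 172.5 ± 9.28 TPM. Core assembly chaperones ran from PSMG4 (53.3 ± 6.31 TPM) to PSMG2 (128.0 ± 15.4).

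**Figure D1:**
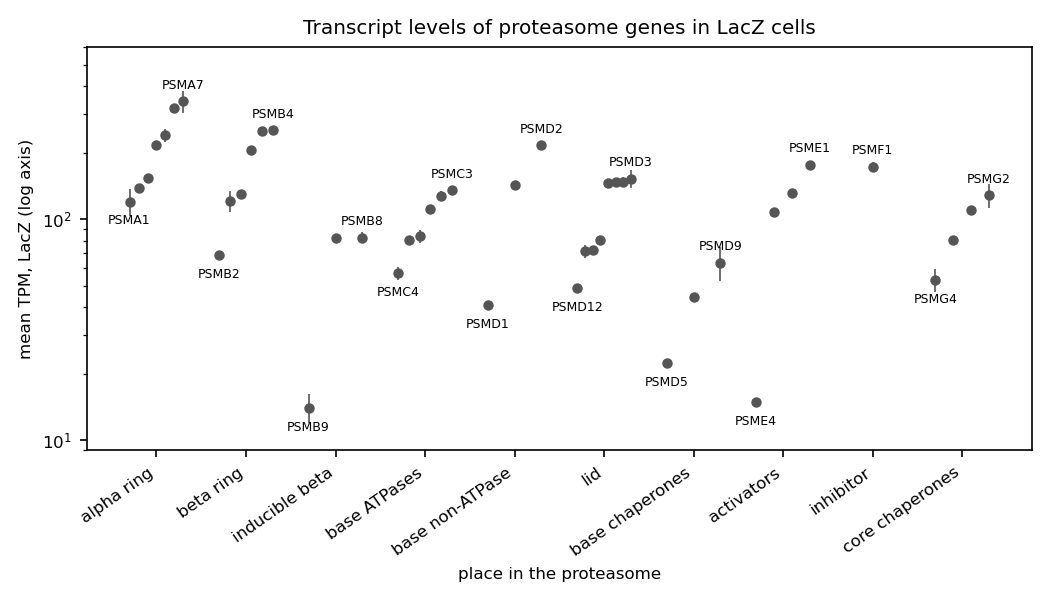
Mean TPM in the 2 LacZ libraries (log axis, bars 1 SD) for 45 tested proteasome genes, grouped by place in the proteasome, with the lowest and highest gene of each group named. PSMB9 at 14.0 and PSME4 at 14.9 TPM were the lowest genes plotted, and PSMA7 at 341.6 TPM was the highest.

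No proteasome gene passed the test at a false discovery rate (FDR) of 0.1, the study's threshold, in any of the 4 comparisons. In sg1 against LacZ 0 of 46 were called, where 0.0378% of all genes were, and the smallest adjusted p was 0.968. In sg5 against LacZ 0 of 46 were called against 0.0972% of all genes (smallest adjusted p = 0.575). With both guides joined, the mean of sg1 and sg5 against LacZ, 0 of 46 were called against 0.167% of all genes (smallest adjusted p = 0.433). Between the guides 0 of 46 were called against 0.0054% of all genes. DESeq2 also called 0 of 46 in each comparison. At an unadjusted p under 0.05, 1 of 46 was higher in sg1 (1.86% of all genes), 2 in sg5 (2.95%) and 2 in the joined comparison (2.89%), and none was lower. Between the guides 0 of 46 had such a p (1.38% of all genes).

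The fold changes were small and mostly of 1 sign. The median log2 fold change of the 46 genes was 0.14 in sg1, 0.19 in sg5 and 0.17 with the guides joined, where the medians over all genes tested were 0.00, -0.01 and -0.01. Values above 0 were found for 43 of 46 in sg1 (50.3% of all genes), 42 in sg5 (48.6%) and 43 in the joined comparison (48.7%). The sg1 and sg5 comparisons share the LacZ libraries. The joined values ran from -0.15 for PSMG4 to 0.38 for PSMD1.

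That shift rested on 2 libraries. Relative to the LacZ mean, the median over the 46 genes was 0.29 in sg1 replicate 1 and 0.32 in sg5 replicate 2 on the log2 scale, but 0.00 in sg1 replicate 2 and 0.05 in sg5 replicate 1, and the 2 LacZ libraries were at -0.02 and 0.02. Sg1 replicate 1 and sg5 replicate 2 were the 2 highest libraries for 39 of 46 genes, as for 18.6% of all genes. Within sg1, replicate 1 was above replicate 2 for 43 genes (47.6% of all genes), and within sg5, replicate 2 was above replicate 1 for 40 (48.6%). Summed over the members, the level was 6719 and 6793 TPM in these 2 libraries and 5622 to 5886 TPM in the other 4. Without them the median log2 fold change was 0.00 in sg1, 0.05 in sg5 and 0.03 joined. The 2 libraries are the ones that stood apart over all genes, and what set them apart was not tested. They held 54490092 (sg1 replicate 1) and 54843745 (sg5 replicate 2) estimated counts. Sg1 replicate 2 held 46131178, sg5 replicate 1 48541973, and the LacZ libraries 53712098 and 52202084. The part of library size in the shift was not tested.

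**Figure D2:**
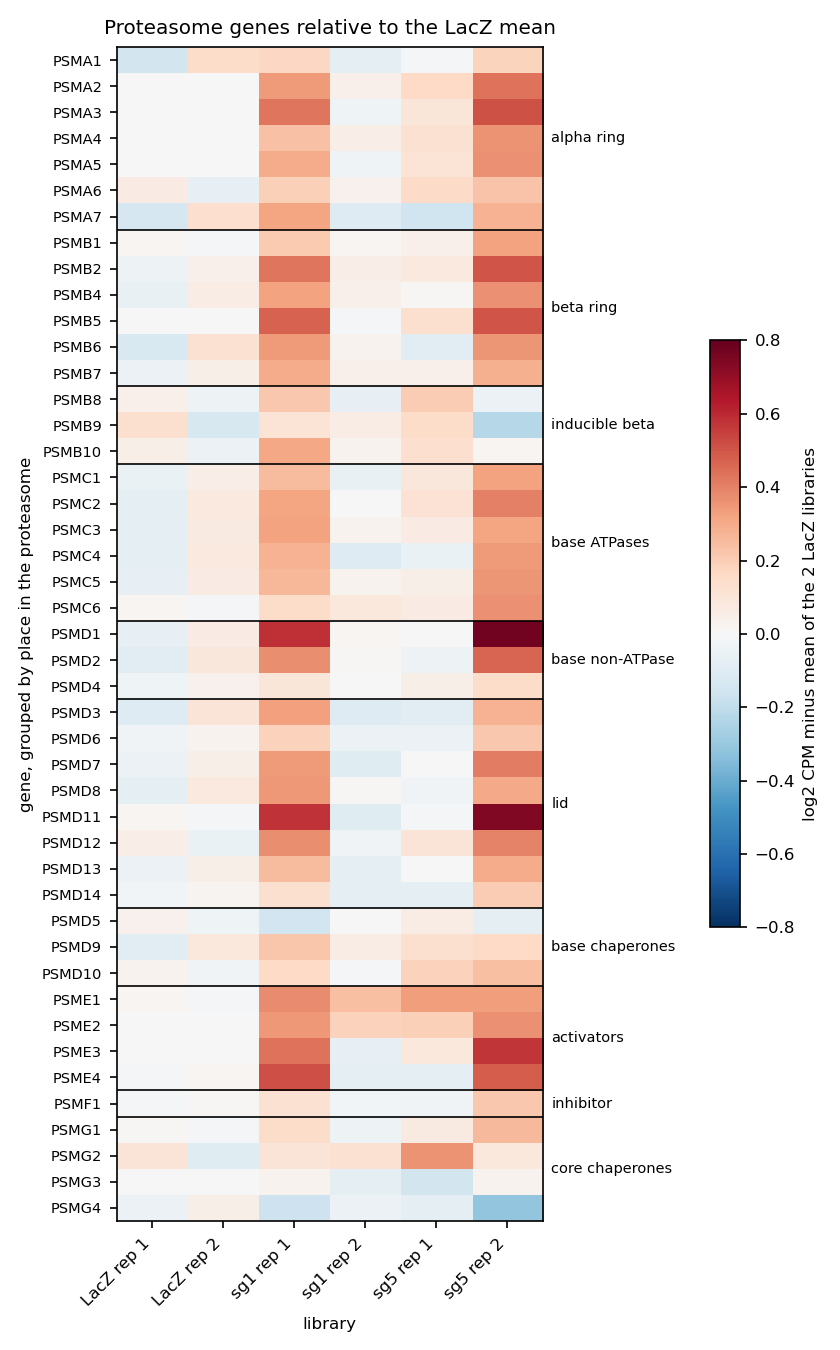
Log2 CPM of 45 proteasome genes (rows, by place in the proteasome) in the 6 libraries (columns), minus the mean of the 2 LacZ libraries. The columns of sg1 replicate 1 and sg5 replicate 2 are red in nearly all core and cap rows, while sg1 replicate 2 and sg5 replicate 1 are near white.

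All 4 ARID1A-deficient libraries lay above both LacZ libraries for 6 of 46 genes, or 13%, where 9.72% of all genes did so. These were PSMA2, PSMA4, PSMB2, PSMC6, PSME1 and PSME2. None of the 46 had all 4 libraries below both LacZ, as 10.4% of all genes had. The share of members above both is near the background.

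Core and cap subunits shared the pattern. All 7 alpha, 6 constitutive beta, 6 ATPase, 3 other base and 8 lid genes had sg1 replicate 1 and sg5 replicate 2 as their highest libraries. Over these 30 genes the median relative to LacZ was 0.31 and 0.35 in those 2 libraries and 0.00 and 0.04 in the other 2 deficient libraries, on the log2 scale. PSMD1, the largest scaffold of the base, was at 77.0 and 84.2 CPM in LacZ, 120.9 and 81.4 with sg1, and 80.6 and 137.4 with sg5. PSMD11, a lid subunit that braces lid and core, was at 94.5 and 92.9 CPM in LacZ, 139.9 and 87.7 with sg1, and 92.6 and 156.6 with sg5. For both genes 1 library of each guide was high and the other lay with LacZ, so that the groups overlapped. Their joined log2 fold changes were the 2 highest of the members, 0.38 ± 0.24 (SE) for PSMD1 and 0.35 ± 0.25 for PSMD11, with adjusted p of 0.757 and 0.775 in edgeR. Without the 2 libraries they were 0.01 and -0.06.

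The catalytic PSMB5, which gives the core its chymotrypsin-like activity, followed the same course at 103.4 and 104.2 CPM in LacZ, 144.3 and 102.5 with sg1, and 113.5 and 147.1 with sg5. PSMB6, the caspase-like subunit, was at 58.7 and 69.4 CPM in LacZ, 81.0 and 65.0 with sg1, and 60.1 and 81.7 with sg5. PSMB7, the trypsin-like subunit, was at 124.9 and 132.9 CPM in LacZ, 158.4 and 132.3 with sg1, and 132.5 and 157.1 with sg5. In all 3 genes LacZ overlapped with at least 1 deficient library. The joined log2 fold changes were 0.29 ± 0.16, 0.17 ± 0.15 and 0.17 ± 0.12 (SE), with adjusted p of 0.742, 0.805 and 0.769 in edgeR.

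Other named genes of the core showed the same high libraries. PSMA7 was at 199.8 and 241.3 CPM in LacZ, 273.4 and 204.5 with sg1, and 196.2 and 266.3 with sg5, and its joined log2 fold change went from 0.09 to -0.14 without the 2 libraries. Of the other named subunits, activators and inhibitor, PSMA1, PSMB6, PSMC4, PSMD2, PSMD3, PSMD11, PSME4 and PSMF1 also changed sign without them. PSMB2 was at 134.6 and 142.8 CPM in LacZ, 186.3 and 143.6 with sg1, and 146.4 and 196.4 with sg5, so that the lowest deficient library lay just above the higher LacZ library. Its joined log2 fold change was 0.28 ± 0.15 (SE, adjusted p = 0.742 in edgeR). The differences between sg1 and sg5 were widest for PSME3 (-0.14 ± 0.20), PSMD10 (-0.13 ± 0.12) and PSMD11 (-0.13 ± 0.29), all with an adjusted p of 1, and no other tested member had a wider difference.

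**Figure D3:**
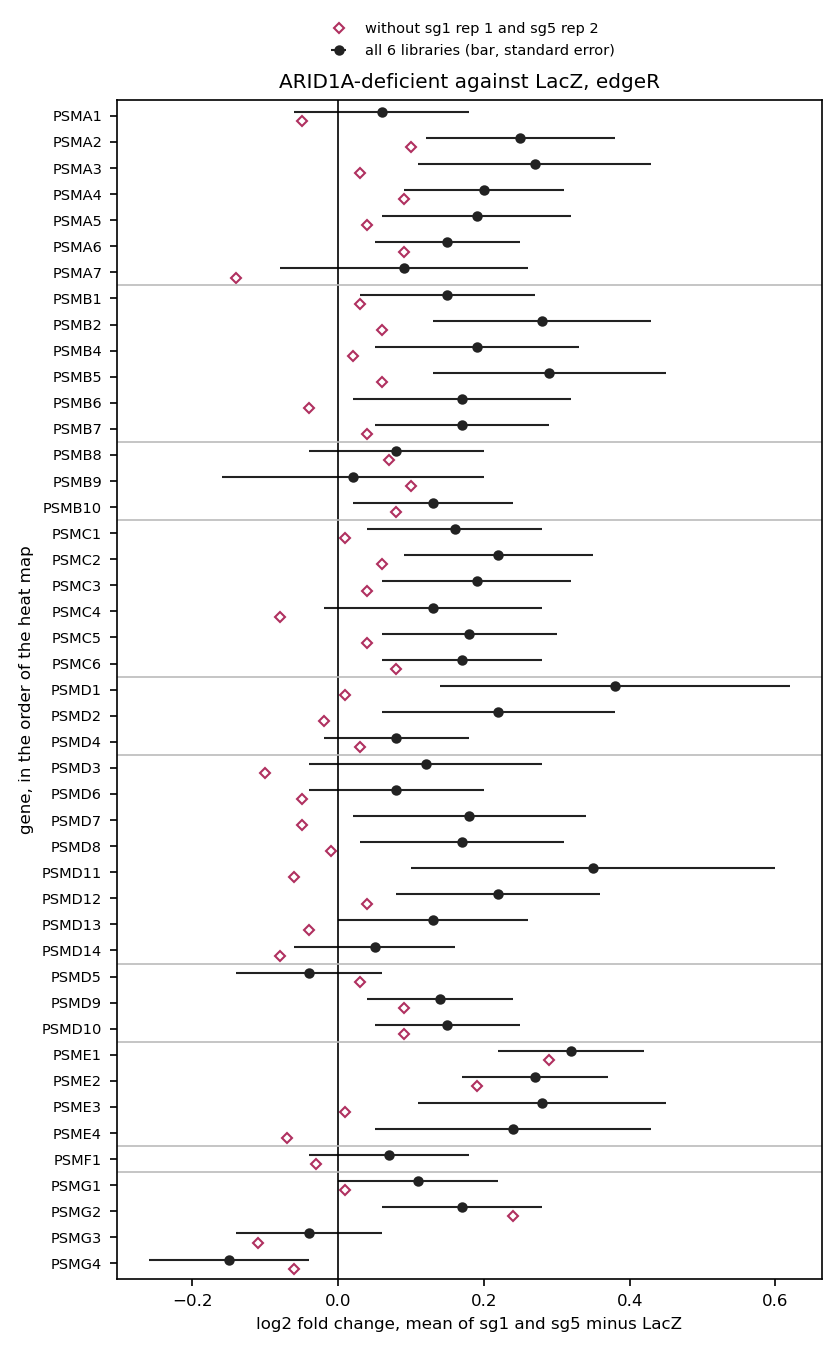
Joined log2 fold change (mean of sg1 and sg5 minus LacZ) of 45 proteasome genes from edgeR, with all 6 libraries (filled circles, bars 1 SE) and without sg1 replicate 1 and sg5 replicate 2 (open diamonds). Most diamonds lie near 0, with PSME1 at 0.29, PSMG2 at 0.24 and PSME2 at 0.19 farthest to the right.

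Among the activators, PSME1 and PSME2 showed the steadiest difference. They encode the alternating subunits of a ring that caps the core without ATP and is induced by interferon gamma. PSME1 (ENSG00000092010) lies at chr14:24136158-24138967 on the plus strand and PSME2 (ENSG00000100911) at chr14:24143362-24147570 on the minus strand of GRCh38 (GENCODE 29), so that they are neighbours. PSME1 was at 116.7 and 114.2 CPM in LacZ, 149.7 and 136.7 with sg1, and 145.4 and 145.6 with sg5. All 4 deficient libraries were higher than both LacZ libraries, and the lowest of them was still clear of LacZ. Its log2 fold change was 0.31 ± 0.11 in sg1, 0.33 ± 0.11 in sg5 and 0.32 ± 0.10 joined (SE). The joined change had an unadjusted p of 0.00877 and an adjusted p of 0.433 in edgeR, and so missed the threshold. Without the 2 libraries that stood apart, it was 0.29, in a fit that holds 1 library of each guide.

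PSME2 was at 63.0 and 62.6 CPM in LacZ, 79.7 and 71.3 with sg1, and 71.7 and 80.9 with sg5. Again all 4 deficient libraries were above LacZ, though here the 2 that stood apart were the highest. The log2 fold change was 0.27 ± 0.12 in sg1, 0.28 ± 0.12 in sg5 and 0.27 ± 0.10 joined (SE), with an unadjusted joined p of 0.0268 and an adjusted p of 0.620 in edgeR. Without the 2 libraries it was 0.19, a smaller value than the 0.29 of PSME1 in the same fit. PSME1-201 held 88.0% to 92.6% of PSME1 counts in a library, whereas PSME2 counts were split between PSME2-213 (45.7% to 60.1%) and PSME2-201 (18.8% to 29.8%). With coding transcripts alone, the joined log2 differences were 0.32 for PSME1 and 0.22 for PSME2. The gene span of PSME1 overlaps EMC9 and that of PSME2 overlaps RNF31, both on the opposite strand. Whether exons share bases was not tested. The library kit does not mark strand, so reads in shared bases could not be told apart by strand.

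PSME3 and PSME4 went with the core subunits instead. PSME3 was at 188.2 and 188.7 CPM in LacZ, 255.1 and 180.2 with sg1, and 200 and 279.7 with sg5 (joined log2 fold change 0.28 ± 0.17 SE, 0.01 without the 2 libraries). PSME4 was at 65.7 and 67.2 CPM in LacZ, 94.8 and 63.1 with sg1, and 63.2 and 92.9 with sg5 (0.24 ± 0.19, and -0.07 without them). In both genes the other deficient library of at least 1 guide lay below LacZ. PSMF1, which binds the core and restrains it in vitro, was at 153.8 and 155.8 CPM in LacZ, 168.1 and 152.4 with sg1, and 151.7 and 179.4 with sg5. Its joined log2 fold change was 0.07 ± 0.11 (SE, adjusted p = 0.880 in edgeR).

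**Figure D4:**
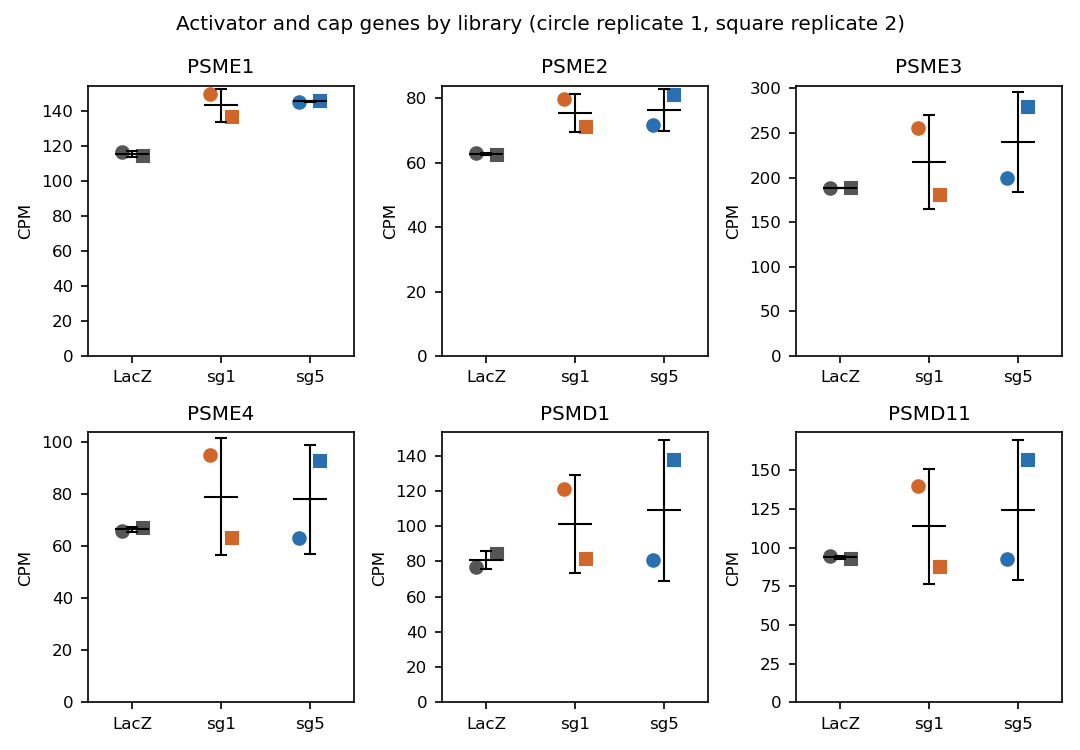
CPM of PSME1, PSME2, PSME3, PSME4, PSMD1 and PSMD11 in each library (circle replicate 1, square replicate 2), with the mean and 1 SD of each group (n = 2). PSME1 in sg1 and sg5 (136.7 to 149.7 CPM) lies above LacZ (114.2 and 116.7), while in PSME3, PSME4, PSMD1 and PSMD11 1 library of each guide is high.

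The inducible catalytic subunits had another order of libraries than the core. None of the 3 had sg1 replicate 1 and sg5 replicate 2 as its 2 highest, where 18.6% of all genes did. The order was not general elsewhere either, as 1 of 3 base chaperones and 2 of 4 core chaperones had it. PSMB8, which replaces PSMB5, was at 64.2 and 60.5 CPM in LacZ, 72.5 and 59.6 with sg1, and 71.9 and 60.2 with sg5. Its high libraries were sg1 replicate 1 and sg5 replicate 1, and the other 2 deficient libraries lay just below LacZ. PSMB10, which replaces PSMB7, was at 54.1 and 50.7 CPM in LacZ, 64.9 and 53.4 with sg1, and 57.4 and 52.9 with sg5. PSMB9, which replaces PSMB6, was far lower, at 7.40 and 6.21 CPM in LacZ, 7.32 and 7.07 with sg1, and 7.52 and 5.78 with sg5. The groups overlapped for all 3 genes. Joined log2 fold changes were 0.08 ± 0.12 for PSMB8, 0.02 ± 0.18 for PSMB9 and 0.13 ± 0.11 for PSMB10 (SE), with adjusted p of 0.880, 0.985 and 0.802 in edgeR. In sg5 replicate 2, where the median core and cap subunit was 0.35 above LacZ, the median of these 3 was at -0.05. In sg1 replicate 1 it was 0.22, against 0.31 for core and cap, with PSMB10 at 0.31. That difference between groups of genes was not tested.

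In TPM, a level per length, PSMB8 was 82.5 ± 4.61, PSMB10 82.1 ± 1.70 and PSMB9 14.0 ± 2.11 (SD, n = 2) in LacZ. PSMB8 made up 39.2% and 38.3% of the sum of PSMB8 and PSMB5 in LacZ, 34.4% and 38.4% with sg1, and 40.1% and 30.3% with sg5. The lowest shares were those of sg1 replicate 1 and sg5 replicate 2, where PSMB5 was highest. PSMB10 made up 29.4% and 27.8% of the sum with PSMB7 in LacZ, 29.8% and 29.2% with sg1, and 30.0% and 26.7% with sg5. PSMB9 made up 12.2% and 8.77% of the sum with PSMB6 in LacZ, 8.67% and 10.5% with sg1, and 12.9% and 7.15% with sg5. In each pair the range of the deficient libraries covered at least 1 LacZ value. PSMB8 (chr6:32840717-32844703, minus strand) and PSMB9 (chr6:32844136-32859585, plus strand, GRCh38, GENCODE 29) overlap each other and PSMB8-AS1, and PSMB9 also overlaps TAP1. These overlaps are of whole gene spans, and whether exons share bases was not tested. With a kit that does not mark strand, reads in shared bases could not be told apart by strand. PSMB9 had a mean of 338.7 counts, and the part of its neighbours in them was not tested.

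**Figure D5:**
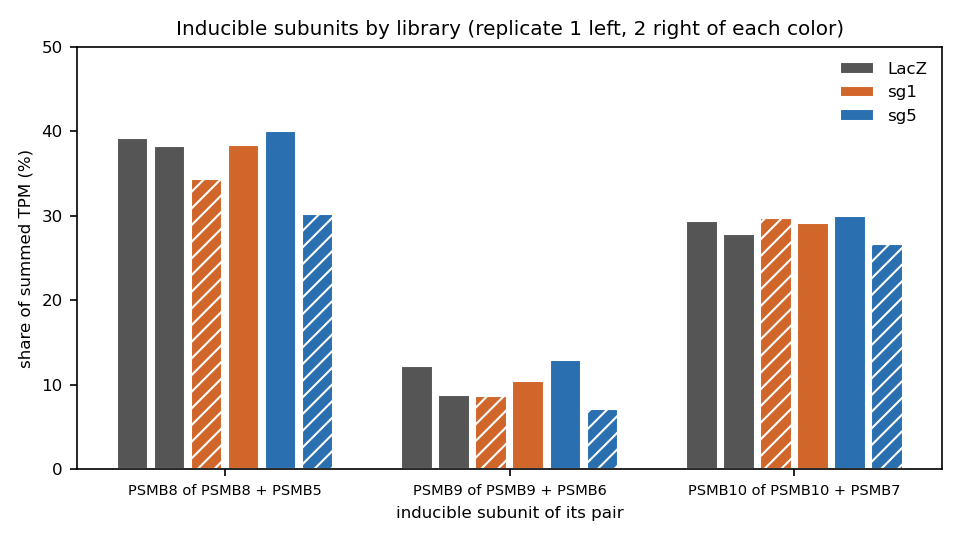
Share of each inducible subunit in the summed TPM of the pair with its constitutive counterpart, by library (hatched, sg1 replicate 1 and sg5 replicate 2). PSMB8 shares run from 30.3% to 40.1%, PSMB9 shares from 7.15% to 12.9% and PSMB10 shares from 26.7% to 30.0%.

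Genes that interferon induces together with the immunoproteasome were examined as a list of 9. With all 6 libraries none was called in any of the 4 comparisons, and the joined median log2 fold change was 0.09. For 2 of 9, ERAP2 and IRF1, all 4 deficient libraries lay above LacZ, as for 9.72% of all genes. ERAP2, a peptide-trimming aminopeptidase, had a joined log2 fold change of 0.20 with all 6 libraries (adjusted p = 0.744 in edgeR). Without the 2 libraries that stood apart it was 0.36 in sg5 and 0.28 joined, in a fit that holds 1 library of each guide. Adjusted p are not given for this list in that fit. The list's median in that fit was 0.20 in sg5 and 0.12 joined. IRF1, the interferon-induced activator of PSMB9, was at 28.6 and 31.9 CPM in LacZ, 36.2 and 36.8 with sg1, and 35.3 and 32.8 with sg5 (0.22, adjusted p = 0.729 in edgeR). TAP1, the peptide transporter subunit next to PSMB9, was at 23.2 and 19.6 CPM in LacZ, 22.8 and 20.4 with sg1, and 22.8 and 19.3 with sg5, with a joined log2 fold change of -0.01. The groups overlapped for TAP1, as for PSMB9.

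The assembly chaperones were divided. POMP, which completes core assembly and is no member by symbol, was at 97.5 and 96.0 CPM in LacZ, 136.5 and 102.4 with sg1, and 107.2 and 157.9 with sg5 (joined log2 fold change 0.38, adjusted p = 0.709 in edgeR). Of the chaperones of the alpha ring, PSMG1 was at 61.1 and 60.1 CPM in LacZ, 67.1 and 58.9 with sg1, and 63.7 and 72.6 with sg5, and PSMG3 stayed between 49.5 and 56.0 CPM in the 6 libraries. PSMG4 ran against the core, at 33.6 and 35.7 CPM in LacZ, 30.8 and 33.6 with sg1, and 32.9 and 27.8 with sg5. Its lowest libraries were the 2 in which core and cap genes were highest. The joined log2 fold changes were 0.11 ± 0.11 for PSMG1, -0.04 ± 0.10 for PSMG3 and -0.15 ± 0.11 for PSMG4 (SE), with adjusted p of 0.808, 0.940 and 0.782 in edgeR.

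PSMG2, the partner of PSMG1, was at 84.4 and 73.5 CPM in LacZ, 84.7 and 85.8 with sg1, and 101.0 and 83.5 with sg5. Here sg5 replicate 1 was high, which was not one of the 2 libraries that stood apart, and the groups overlapped. Its log2 fold change was 0.22 ± 0.13 (SE) in sg5, with an adjusted p of 0.706 in edgeR. Without the 2 libraries, PSMG2 (0.35, adjusted p = 0.0397) and PSME1 (0.33, adjusted p = 0.0623) were called in sg5. That made 2 of 46, where 4.09% of all genes were called in the same fit. With the guides joined, PSME1 alone was called, 1 of 46 against 4.2% of all genes. The fit holds 1 library of each guide and takes it to vary like LacZ. Both shares are near or below the background.

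The base chaperones guide the ATPase ring together. PSMD5 was at 49.9 and 47.4 CPM in LacZ, 43.7 and 48.8 with sg1, and 50.6 and 46.3 with sg5, and like PSMG4 had its lowest values in the 2 libraries where the core was high. PSMD9 was at 49.6 and 55.6 CPM in LacZ, 61.1 and 54.8 with sg1, and 57.5 and 58.6 with sg5. PSMD10, also known as gankyrin, was at 41.0 and 39.6 CPM in LacZ, 45 and 40.1 with sg1, and 45.9 and 47.6 with sg5. Joined log2 fold changes were -0.04 ± 0.10, 0.14 ± 0.10 and 0.15 ± 0.10 (SE), with adjusted p of 0.942, 0.772 and 0.768 in edgeR.

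A list of 25 further genes tied to the proteasome, without a PSM symbol, was examined. They are termed partners here, also where they are subunits. None was called in any of the 4 comparisons, and their joined median log2 fold change was 0.11. Sg1 replicate 1 and sg5 replicate 2 were the 2 highest libraries for 16 of the 25, against 18.6% of all genes. In those libraries the median partner was 0.18 and 0.23 above LacZ on the log2 scale, against -0.02 and 0.06 in the other 2 deficient libraries. USP14, the deubiquitinase that trims chains on the cap, was at 116.8 and 102.9 CPM in LacZ, 148.9 and 115.6 with sg1, and 131.8 and 164.1 with sg5. VCP, the segregase that extracts ubiquitylated proteins, was at 469.2 and 495.8 CPM in LacZ, 668.5 and 467.0 with sg1, and 458.9 and 672.3 with sg5. Both had the 2 high libraries of the core genes, and the groups overlapped. Of the 25, SEM1, POMP, NFE2L2 and UFD1 had all 4 deficient libraries above both LacZ libraries, and 1, AKIRIN2, had all 4 below, where 9.72% and 10.4% of all genes did. None of the 25 was called without the 2 libraries that stood apart, and the joined median was -0.01.

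NFE2L1, the transcription factor of the subunit genes under inhibition, did not have those high libraries at the transcript level. Its protein was not measured, and its part in the levels of the subunit genes was not tested. The NFE2L1 transcript was at 193.6 and 221.9 CPM in LacZ, 196.3 and 207.5 with sg1, and 205.1 and 188.8 with sg5 (joined log2 fold change -0.06, adjusted p = 0.908 in edgeR). AKIRIN2, which brings assembled proteasomes into the nucleus, was at 49.7 and 53.5 CPM in LacZ, 45.4 and 46.1 with sg1, and 43.4 and 41.6 with sg5 (-0.23, adjusted p = 0.678).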

How the data were processed

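RNA-seq of 6 NB4 libraries was analysed from the deposited transcript tables. Per the labels, reads were quantified with kallisto and hg19 is named as the build; the authors' tables hold estimated counts and TPM per transcript, with no other normalization, and the kit (TruSeq RNA) does not mark strand. Transcript identifiers were joined to GENCODE 29 (GRCh38), which matched 181857 of 196354 transcripts (92.6%), and counts and TPM were summed per gene. Members and gene lists were chosen with earlier results of these data known.

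Summed counts were rounded and tested over all genes with edgeR 4.0.16 (R 4.3.3): genes kept by filterByExpr with a count minimum of 10, TMM factors, robust quasi-likelihood F-tests on all 6 libraries with the group as the only term, Benjamini-Hochberg adjusted p and an FDR of 0.1, as in the study. Contrasts were sg1 against LacZ, sg5 against LacZ, their mean against LacZ, and sg1 against sg5. SE is the log2 fold change divided by the square root of F. CPM are TMM-scaled, and the common variation between replicates (BCV) was 16.6%. Log2 levels relative to LacZ used a prior count of 2. Named genes were the catalytic and inducible pairs, called genes, up to 3 genes per direction with all 4 deficient libraries on 1 side of LacZ, the highest and lowest gene of each group in TPM, the PSME, PSMF and PSMG genes, genes the filter removed, the 3 widest differences between guides, called partners and TAP1; others (PSMD8, PSMD13, PSMA4 and the like, markers, ERAP2, IRF1, POMP, SEM1, UFD1, NFE2L2, USP14, VCP, NFE2L1 and AKIRIN2) were chosen after their values were seen.

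Alternatives were DESeq2 1.42.0, other scaling and filters, a length offset, a replicate block and fits without libraries; leaving out 2 libraries that stood apart was planned with earlier results known, and crossed pairing, coding transcripts alone, and core and cap subunits alone were added after seeing the data. Same-numbered libraries did not deviate together (correlations 0.07, 0.01 and -0.21).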

Additional observations from a re-analysis of the deposited data

Results flagged for a closer look

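PSMG2 was the 1 gene of 30 named proteasome genes with a library far from the others among the 4 ARID1A-deficient libraries. Its CPM was 84.7 and 85.8 in sg1 and 101.0 and 83.5 in sg5, and the gap of sg5 replicate 1 to its nearest neighbour made up 0.868 of the range of the 4 values, above Dixon's critical value for 4 values. Chance marks about 1 in 20 such groups. PSMG2 overlaps SPIRE1 and CEP76 on the opposite strand, and their part in its level was not tested.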

How the results depend on the processing

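The call of 0 proteasome genes held in all 4 comparisons under every alternative run except the fit without sg1 replicate 1 and sg5 replicate 2, which called 2 in sg5 (PSME1, PSMG2) and 1 joined (PSME1). With the replicate block, medians were 0.14, 0.19, 0.17 and -0.05 (sg1, sg5, joined, sg1 against sg5) with 0 calls; the crossed pairing also gave 0 calls. Leaving out 1 library at a time, 0 were called, and the median log2 fold change ran from -0.01 to 0.30 in sg1, 0.05 to 0.34 in sg5, 0.09 to 0.24 joined and -0.20 to 0.10 between the guides. Without a normalization factor, the medians were 0.09, 0.14 and 0.12 in the LacZ comparisons. Of 39 named log2 fold changes, none was called with all 6 libraries. Of their 672 alternative values, 640 kept direction and stayed uncalled, and 29 changed sign. The rest kept direction and crossed the threshold only in the fit without sg1 replicate 1 and sg5 replicate 2, which holds 1 library of each guide. Without the 2 libraries, joined values turned to -0.05 (PSMA1), -0.14 (PSMA7), -0.04 (PSMB6), -0.09 (PSMC3IP), -0.08 (PSMC4), -0.06 (PSMD11), -0.02 (PSMD2), -0.10 (PSMD3), 0.03 (PSMD5), -0.07 (PSME4) and -0.03 (PSMF1). With a length offset, PSMD5 was at 0.02 and PSMG3 at 0.03; without a normalization factor, PSMB9 was at -0.02. Leaving out 1 library at a time, joined values that changed sign ran from -0.07 to 0.22 (PSMA1), -0.03 to 0.24 (PSMA7), -0.10 to 0.16 (PSMB9), -0.03 to 0.26 (PSMC3IP), -0.07 to 0.00 (PSMD5) and -0.09 to 0.01 (PSMG3), and sg1 against sg5 from -0.53 to 0.30 (PSMD11) and -0.43 to 0.13 (PSME3). In estimated counts, the PSMB8 share in LacZ was 37.5% and the PSMB10 share in sg1 28.9%. The cause of these changes was not tested. Only 2 libraries a group limit the precision, and a missed threshold does not show that levels were equal.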
